A study of Mus musculus with 9 samples.

Results

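The mRNA of 8 transcription factor genes that set and maintain hepatocyte identity was followed across 9 mouse liver libraries: Hnf4a, Foxa1, Foxa2, Foxa3, Onecut1, Cebpa, Nr5a2 and Prox1. They were chosen by name, as HNF4A, the factor in the series title, and its best known partners in the hepatocyte network. All 8 of 8 are among the 23337 genes of the count table, and all 8 are among the 13141 genes with enough reads to be tested. Messenger RNA was sequenced from whole liver of C57BL/6 mice that were 6 to 8 weeks old when a high-fat diet (HFD) began and that ate it for 16 weeks. The labels give 3 groups of 3 mice: PAR2dHep mice, without protease-activated receptor 2 (PAR2) in hepatocytes (dHep), whole-body PAR2 KO mice (KO), and PAR2fl/fl mice with an intact floxed gene (WT). PAR2 is a cell-surface receptor switched on by coagulation and other serine proteases. All 3 groups ate the HFD, so no library shows the same genes on a plain diet. The Cre line behind PAR2dHep and the background of the whole-body line are not given in the sources used here, and the labels give 1 control genotype, the floxed one, for both.

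HNF4A is a nuclear receptor that binds the promoters and enhancers of genes for lipoproteins, bile acid synthesis, clotting factors and ammonia disposal. FOXA1, FOXA2 and FOXA3 are forkhead pioneer factors, able to bind sites in compacted chromatin, and C/EBPα (Cebpa) is a leucine zipper factor that drives metabolic genes in adult liver. HNF6 (Onecut1), LRH-1 (Nr5a2) and PROX1 form the outer part of the same network, and several of these factors bind one another's promoters.

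Depth ran from 18683660 to 30509242 reads assigned to genes per library. The 12 hepatocyte markers had reads in every library and summed to 137200 to 189500 CPM (reads scaled to a library of 1e+06) in dHep, 138900 to 152700 in KO and 127500 to 133400 in WT. Beyond the strain, genotype, diet and starting age given above, the labels say no more of the mice than their number. Ranks of 3 against 3 cannot give a two-sided exact permutation p under 0.1. F2rl1, the gene for PAR2, had 2, 8 and 0 reads in the dHep libraries, 71, 103 and 76 in the KO libraries and 17, 27 and 28 in the WT libraries. F2rl1 was therefore higher in KO than in WT (log2 fold change 2.22), against the label, and the whole-gene count cannot separate the deleted part from the rest; every direction drawn from these libraries is for libraries labelled KO. Some libraries carried transcripts of other organs. The pancreatic acinar markers summed to 2181 CPM in dHep 2 and 576 CPM in WT 1, against 12.9 to 187 CPM in the other 7 libraries, and the intestinal sucrase Sis had 1620 reads in KO 1 against 0 or 1 elsewhere. The 10 pancreatic islet markers summed to 39.6 CPM in KO 3 (Ins2 433 reads), against at most 2.58 CPM elsewhere. The 10 skeletal muscle markers summed to 621 CPM in dHep 2, 52.4 in KO 3, 38.0 in KO 2 and 19.8 in dHep 1, against 0.85 to 5.99 CPM in the other 5 libraries.

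The start regions of Hnf4a and of the members that passed a test, with Onecut1, are shown. Several of the network's factors bind one another's promoters, and regulatory stretches outside the start regions were not searched. RefSeq promoter windows (GRCm38.p6, 250 bases before to 50 after an annotated start) were found for 8 of 8 members, 13 windows in all. Hnf4a has a distal start, at chr2:163506607-163506906 (plus strand), and a proximal one, at chr2:163546905-163547204 (plus strand); the proximal one is known as the start used in adult hepatocytes. Capitals mark matches, on either strand, to any of 6 short motifs: TGTTTNC (FOXA), ATCNAT (ONECUT), CAAAGTC (HNF4), AGGTCA (nuclear receptor half-site), TTGCNNAA (C/EBP) and TTCNNNGAA (STAT). The motifs were chosen after the expression values had been seen.
Hnf4a proximal: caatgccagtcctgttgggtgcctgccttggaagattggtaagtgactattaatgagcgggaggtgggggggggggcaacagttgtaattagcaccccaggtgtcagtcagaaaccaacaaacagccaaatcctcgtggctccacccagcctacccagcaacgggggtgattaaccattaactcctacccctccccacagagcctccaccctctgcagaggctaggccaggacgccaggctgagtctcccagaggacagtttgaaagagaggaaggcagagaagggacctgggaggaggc
Hnf4a distal: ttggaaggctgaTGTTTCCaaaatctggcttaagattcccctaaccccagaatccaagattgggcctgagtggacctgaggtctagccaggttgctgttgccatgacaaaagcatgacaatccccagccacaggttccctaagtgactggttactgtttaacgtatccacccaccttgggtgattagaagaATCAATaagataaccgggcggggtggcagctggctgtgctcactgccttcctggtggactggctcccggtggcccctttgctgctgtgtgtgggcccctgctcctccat
Foxa1: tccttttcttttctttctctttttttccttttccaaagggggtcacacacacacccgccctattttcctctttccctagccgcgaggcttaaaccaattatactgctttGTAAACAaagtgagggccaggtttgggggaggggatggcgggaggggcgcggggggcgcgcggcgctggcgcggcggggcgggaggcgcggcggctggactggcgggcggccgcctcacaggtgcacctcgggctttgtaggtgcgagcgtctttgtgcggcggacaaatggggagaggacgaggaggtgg
Foxa2: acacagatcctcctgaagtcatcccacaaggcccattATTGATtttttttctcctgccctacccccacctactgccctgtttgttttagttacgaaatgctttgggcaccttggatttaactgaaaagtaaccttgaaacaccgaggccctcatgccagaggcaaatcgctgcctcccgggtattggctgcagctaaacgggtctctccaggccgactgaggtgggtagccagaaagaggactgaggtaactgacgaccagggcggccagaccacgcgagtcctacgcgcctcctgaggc
Foxa3: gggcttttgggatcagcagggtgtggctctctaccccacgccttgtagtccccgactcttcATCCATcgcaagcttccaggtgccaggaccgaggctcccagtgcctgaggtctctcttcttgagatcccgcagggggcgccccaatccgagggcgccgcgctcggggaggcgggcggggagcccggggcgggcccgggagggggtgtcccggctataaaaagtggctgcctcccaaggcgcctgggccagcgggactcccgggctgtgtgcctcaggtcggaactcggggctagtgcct
Onecut1: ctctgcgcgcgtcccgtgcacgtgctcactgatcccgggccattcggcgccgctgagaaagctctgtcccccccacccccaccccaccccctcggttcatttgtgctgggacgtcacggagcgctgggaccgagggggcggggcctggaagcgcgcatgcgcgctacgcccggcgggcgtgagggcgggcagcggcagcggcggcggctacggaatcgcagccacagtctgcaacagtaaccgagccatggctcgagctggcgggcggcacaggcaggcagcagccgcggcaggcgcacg
Cebpa: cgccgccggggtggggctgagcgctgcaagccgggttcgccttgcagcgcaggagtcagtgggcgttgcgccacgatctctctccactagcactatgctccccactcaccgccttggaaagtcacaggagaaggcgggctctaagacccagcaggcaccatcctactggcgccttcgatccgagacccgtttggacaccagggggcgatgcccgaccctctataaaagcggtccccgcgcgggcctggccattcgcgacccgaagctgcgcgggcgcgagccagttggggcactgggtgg
The 4 windows from Foxa1 to Onecut1 lie at chr12:57546062-57546361, chr2:148046920-148047219 and chr7:19023490-19023789 on the minus strand and at chr9:74861671-74861970 on the plus strand. The proximal Hnf4a window held none of the 6 motifs. The distal Hnf4a window held a FOXA match and an ONECUT match, motifs found in 20.5% and 21.4% of all 32817 promoter windows of this length. Foxa1 held 1 FOXA match, Foxa2 and Foxa3 held 1 ONECUT match each, and the windows of Onecut1 and Cebpa (chr7:35119043-35119342, plus strand) held no match. Foxa2 has 3 windows, of which the one at the first counted base is shown; the other 2 held no match. Of the windows not shown, 1 of Nr5a2 held a C/EBP match and the other a nuclear receptor half-site, and 1 of 2 of Prox1 held a FOXA match. No marked match overlapped another. The HNF4 motif is in 4.44% of all windows, the nuclear receptor half-site in 16.3%, the C/EBP motif in 10.8% and the STAT motif in 8.29%. These are matches of letters only.

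The counted Hnf4a exons run from chr2:163547188 to 163572907 (mm10) in 10 blocks, and begin 33 bases past the proximal start. The distal start lies 40331 bases before the first counted base, so exons used only from there are outside the Hnf4a count. Onecut1 was counted over 2 exon blocks at chr9:74861921-74889647 and Cebpa over its single exon at chr7:35119293-35121931.

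Hnf4a was the most abundant member and Cebpa the next in every group when levels were expressed per length, as TPM (transcripts scaled to one fixed total per library). Hnf4a averaged 249 ± 49.4 TPM in dHep, 236 ± 21.2 in KO and 244 ± 8.17 in WT (SD, n = 3 each). Cebpa averaged 187 ± 24.1, 173 ± 3.13 and 185 ± 11.1 TPM in the same groups. The other 6 members averaged 11.5 to 37.1 TPM in dHep, 15.6 to 40.9 in KO and 4.06 to 33.6 in WT, without overlap with Cebpa in any group. In WT the order after Cebpa was Nr5a2, Prox1, Foxa3, Foxa2, Foxa1 and Onecut1; Prox1 and Foxa3 were separated there, at 30.0 to 35.2 against 16.5 to 19.7 TPM, and every other neighbouring pair among these 6 overlapped. In dHep and in KO, Foxa3 averaged highest of the 6, and all neighbouring pairs among them overlapped. Within dHep the ranges of Hnf4a and Cebpa overlapped as well.

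**Figure D1:**
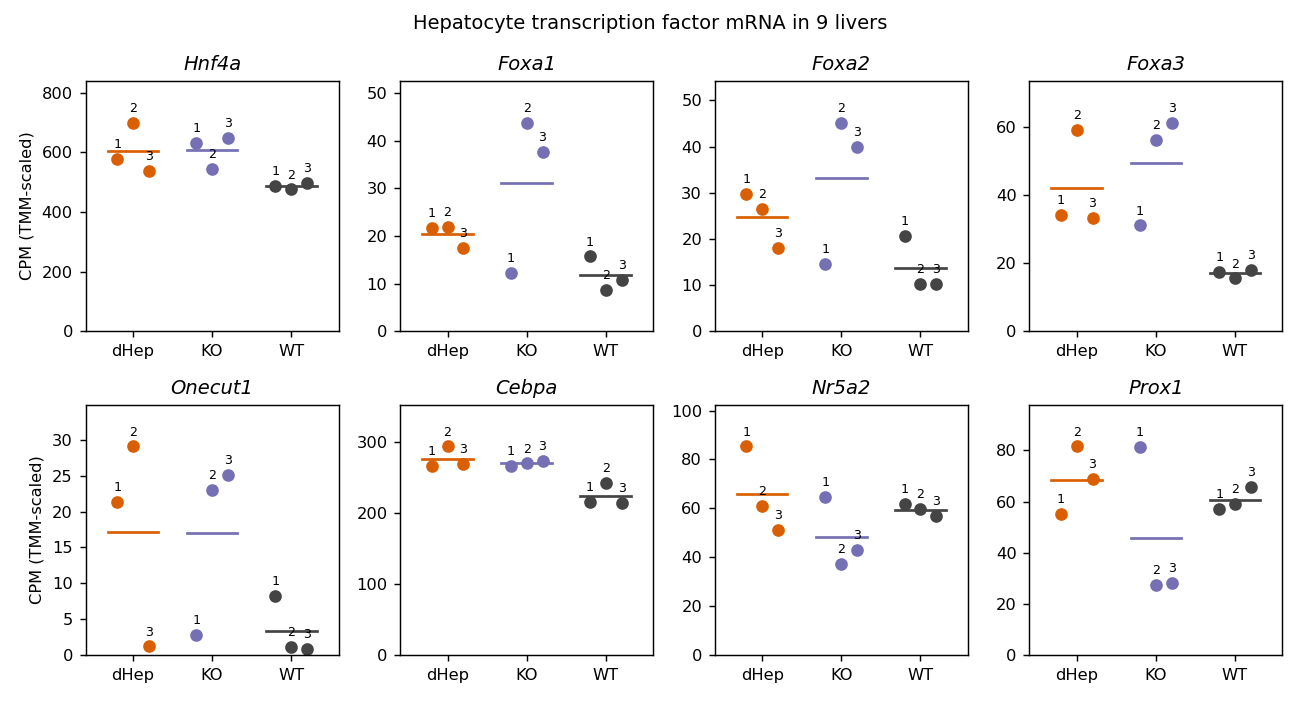
TMM-scaled CPM (linear axis from 0) of each of the 8 genes in the 9 livers, grouped as dHep, KO and WT; points are libraries with their replicate number and bars are group means. Foxa3 is above all WT libraries in all 6 dHep and KO libraries, while Onecut1 splits every group, with dHep 3 at 1.18 CPM against 21.3 and 29.1 in dHep 1 and dHep 2.

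Across the 8 genes, 2 passed the test in dHep against WT and 4 in KO against WT, all of them higher than in WT, and none passed between KO and dHep. The calls come from the edgeR quasi-likelihood test with Benjamini-Hochberg adjustment over all 13141 genes and a threshold of 0.05. Of all tested genes 24.3% passed in dHep against WT (12.4% rose and 11.9% fell), so 2 of 8 is near the background. In KO against WT 43.0% passed (20.9% rose and 22.1% fell), beside 4 of 8 members, and in KO against dHep 9.62% passed (4.23% rose and 5.39% fell). DESeq2 called 3, 5 and 0 members in the 3 comparisons, and 3, 5 and 0 had an unadjusted edgeR p under 0.05. The dHep and KO comparisons share the WT libraries. The median log2 fold change of the members was 0.56 in dHep against WT and 0.80 in KO against WT, where all tested genes had medians of 0.02 and -0.01. It was -0.01 between KO and dHep, beside -0.02 for all genes.

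Hnf4a did not pass the adjusted threshold in any comparison, although its dHep and KO libraries did not overlap WT. The libraries had 577.5, 699.9 and 539.2 CPM in dHep, 632.5, 545.3 and 647.9 CPM in KO and 488.4, 476.2 and 496.8 CPM in WT. All 6 dHep and KO libraries lay above all 3 WT libraries, which differed by only 1.04-fold between the lowest and the highest. Separation of this kind was common, since 43.4% of all genes in dHep against WT and 66.2% in KO against WT had groups that did not overlap. The log2 fold change was 0.31 ± 0.13 (SE) in dHep against WT (95% interval 0.03 to 0.60, edgeR adjusted p = 0.105) and 0.32 ± 0.13 in KO against WT (0.03 to 0.61, edgeR adjusted p = 0.0692). KO and dHep differed by 0.01 ± 0.13 (-0.28 to 0.30, edgeR adjusted p = 0.979), and the libraries of these 2 groups overlapped for all 8 members, where 26.5% of all genes had groups that did not overlap. In whole liver, a larger share of hepatocytes and more mRNA per hepatocyte cannot be told apart. Without KO 1, the library with intestinal transcripts, Hnf4a in KO against WT was 0.31 ± 0.15.

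The size of the Hnf4a difference depended on the scale on which it was read. TMM scaling, which sets the bulk of genes level between libraries, gave 0.31 in dHep and 0.32 in KO relative to WT on the log2 scale. Plain library totals gave 0.15 and 0.13, and TPM gave 0.03 and -0.05, a change of sign for KO. The median gene moved with the scale, from -0.01 and -0.02 under TMM to -0.29 and -0.38 in TPM. Read relative to the median gene of the same scale, Hnf4a stood at 0.32 in dHep and between 0.33 and 0.34 in KO on all 3 scales. For any gene the scales differ only by a factor per library, which this subtraction nearly removes. The agreement therefore follows from arithmetic and is no separate evidence of a rise. Cebpa showed the same dependence, with 0.30 in dHep and 0.27 in KO under TMM, 0.14 and 0.08 under library totals and 0.02 and -0.10 in TPM. Relative to the median gene Cebpa stood at 0.31 in dHep and 0.28 to 0.29 in KO on every scale, by the same arithmetic.

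**Figure D2:**
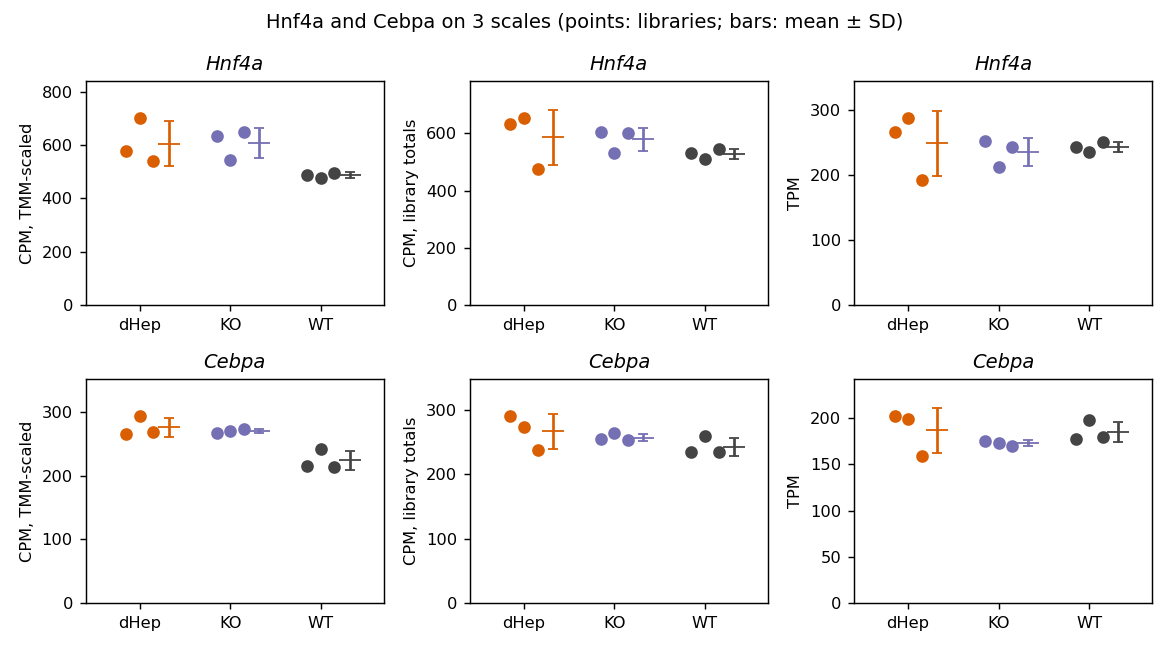
Levels of Hnf4a and Cebpa in the dHep, KO and WT libraries on 3 scales (TMM-scaled CPM, CPM by library totals, TPM), all on linear axes from 0; points are libraries and bars the mean ± SD (n = 3). The separation from WT seen in TMM-scaled CPM is not seen in TPM, where Hnf4a averages 249, 236 and 244.

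Cebpa had 265.6, 293.4 and 268.6 CPM in dHep, 266.5, 269.5 and 272.5 CPM in KO and 215.4, 241.6 and 214.0 CPM in WT. It was the steadiest member in KO, where the 3 libraries differed by 1.02-fold, and all 6 dHep and KO libraries exceeded WT. It rose by a log2 fold change of 0.30 ± 0.09 in dHep (edgeR adjusted p = 0.0418) and of 0.27 ± 0.09 in KO (edgeR adjusted p = 0.0415). Both calls lay close to the threshold: of 20 alternative analyses 5 kept the first and 8 the second. Without WT 1 and dHep 2 the dHep value was 0.23 ± 0.12 (edgeR adjusted p = 0.215), and without WT 1 the KO value was 0.24 ± 0.12 (edgeR adjusted p = 0.147). Of 7 tested paralogs of the members, 1 rose in dHep against WT, where 12.4% of all genes rose. This was Cebpb, whose product is induced in inflammation and regeneration. Cebpb had 6.99, 11.4 and 16.2 CPM in dHep, against 5.63, 6.34 and 5.77 CPM in WT, and rose by 0.95 ± 0.28 (edgeR adjusted p = 0.0339).

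Of the 8 members, Foxa3 had the smallest p in both comparisons with WT. Foxa3, needed in mice for glucose balance during prolonged fasting, had 34.3, 59.2 and 33.4 CPM in dHep, 31.1, 56.3 and 61.4 CPM in KO and 17.4, 15.6 and 18.1 CPM in WT. Every dHep and KO library lay above every WT library. Foxa3 rose by a log2 fold change of 1.31 ± 0.28 in dHep (2.48-fold, edgeR adjusted p = 0.0104) and of 1.54 ± 0.28 in KO (2.91-fold, edgeR adjusted p = 0.00266). The KO call held in 20 of 20 alternatives and the dHep call in 19, the exception being the fit without WT 2 (1.25 ± 0.34, edgeR adjusted p = 0.0506).

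Foxa1, which with FOXA2 opens liver chromatin during development, had 21.7, 22.0 and 17.6 CPM in dHep, 12.3, 43.8 and 37.6 CPM in KO and 15.7, 8.71 and 10.7 CPM in WT. All dHep libraries exceeded WT, yet the difference of 0.80 ± 0.40 did not pass (edgeR adjusted p = 0.172). KO 2 and KO 3 were the highest of all 9, whereas KO 1 lay inside the WT range. Foxa1 rose in KO by 1.41 ± 0.40 (2.66-fold, edgeR adjusted p = 0.0192), and by 1.82 ± 0.23 without KO 1 (edgeR adjusted p = 0.00143). The call ended without KO 2, KO 3, WT 2 or WT 3 in turn, at values of 1.09 to 1.35, and in TPM (0.89), and without KO 1 the dHep difference passed too (0.81 ± 0.21, edgeR adjusted p = 0.0271).

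Foxa2, a FOXA family member also expressed in pancreas and gut and tied to insulin-regulated lipid metabolism, followed Foxa1 library by library. It had 29.7, 26.5 and 18.1 CPM in dHep, 14.6, 45.2 and 39.9 CPM in KO and 20.7, 10.3 and 10.3 CPM in WT. The highest WT library, WT 1, overlapped dHep 3 and KO 1. Foxa2 differed by 0.85 ± 0.42 in dHep (edgeR adjusted p = 0.166) and rose by 1.27 ± 0.42 in KO (2.42-fold, edgeR adjusted p = 0.0349). The KO call ended under 7 of the 20 alternatives, among them the fits without KO 2, KO 3, WT 2 or WT 3 in turn (0.99 to 1.12).

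Summed over the 3 genes, FOXA mRNA came to 75.6, 86.7 and 47.5 TPM in dHep, 45.2, 106 and 99.5 TPM in KO and 50.4, 32.8 and 37.8 TPM in WT. dHep 3 and KO 1 were thus below the highest WT library. Between KO and dHep the log2 differences were 0.61 ± 0.40 for Foxa1, 0.42 ± 0.41 for Foxa2 and 0.23 ± 0.28 for Foxa3, and none passed (edgeR adjusted p = 0.335, 0.534 and 0.617). Foxa3 supplied 44.7 to 60.0% of the family in dHep, 44.1 to 58.8% in KO and 36.8 to 52.0% in WT. Hnf4a TPM was 3.32 to 4.07 times the FOXA sum in dHep, 2.00 to 5.59 times in KO and 4.84 to 7.19 times in WT. WT 1, one of the 2 libraries with the most acinar transcripts, had more Foxa1 and Foxa2 than WT 2 and WT 3, and KO 3, with the most islet transcripts, was among the 2 highest of all. The 4 libraries with the most muscle transcripts, KO 2, KO 3, dHep 1 and dHep 2, also had the highest Foxa1 and Foxa2. The part of these tissues in the FOXA values was not tested.

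**Figure D3:**
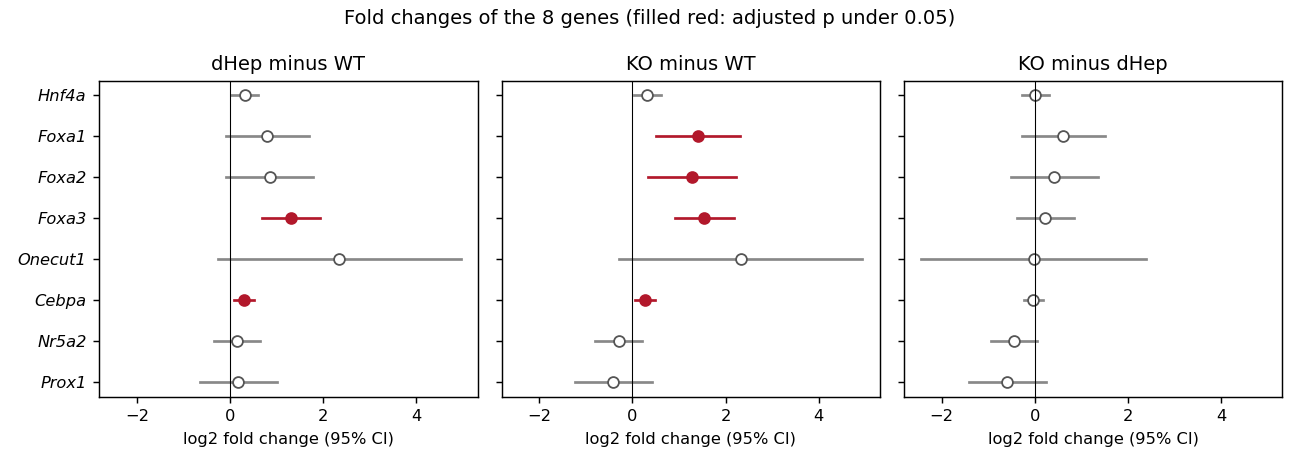
Log2 fold changes with 95% intervals of the 8 genes in panels for dHep minus WT, KO minus WT and then KO minus dHep, from the edgeR fit on all 9 libraries; filled red points passed the adjusted threshold. Foxa3 and Cebpa are filled in both comparisons with WT, Foxa1 and Foxa2 in KO minus WT, and the Onecut1 intervals are the widest.

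Onecut1, whose product HNF6 acts in bile duct formation and in adult metabolism, had the largest mean difference and the largest spread. It had 710, 724 and 24 reads in dHep, 60, 508 and 436 reads in KO and 218, 31 and 24 reads in WT. In CPM these were 21.3, 29.1 and 1.18, then 2.82, 23.0 and 25.2, then 8.19, 1.15 and 0.86. The 4 libraries dHep 1, dHep 2, KO 2 and KO 3 lay above 20 CPM; WT 1 was intermediate and dHep 3, KO 1, WT 2 and WT 3 lay under 3 CPM. Within a group the highest library exceeded the lowest 24.7-fold in dHep, 8.93-fold in KO and 9.57-fold in WT. The log2 fold change was 2.35 ± 1.16 in dHep (95% interval -0.25 to 4.95, edgeR adjusted p = 0.169) and 2.32 ± 1.16 in KO (-0.29 to 4.93, edgeR adjusted p = 0.132). Without WT 1, the KO difference was 4.07 ± 1.35 and passed (edgeR adjusted p = 0.0481). The 4 libraries above 20 CPM were those with 19.8 to 621 CPM of muscle markers, against 0.85 to 5.99 CPM in the other 5. Acinar markers were highest in dHep 2 and WT 1 and islet markers in KO 3. The part of these tissues in the Onecut1 values was not tested.

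The genes most like Onecut1 over the 9 libraries were Gadd45g, Cish and Foxq1. Likeness was the root mean square difference of log2(TPM + 0.1) from each gene's own mean, searched over 8200 genes with a mean of at least 5 TPM, and is given as a description. It was 0.52, 0.60 and 0.68 for the 3 genes, where Onecut1 itself varied by 1.93 around its mean. Cish, which encodes an inhibitor of cytokine receptor signalling, had 36.9, 37.7 and 2.20 TPM in dHep, 2.38, 65.0 and 58.7 TPM in KO and 29.6, 3.25 and 3.76 TPM in WT. The libraries with high and low Cish were those with high and low Onecut1, with WT 1 nearer to the high ones. Gadd45g, a stress and growth arrest gene, had 26.8, 29.9 and 3.12 TPM in dHep, 4.54, 73.1 and 37.3 TPM in KO and 18.996, 2.44 and 2.19 TPM in WT. Foxq1, another forkhead gene, lay between 0.98 and 16.4 TPM in the same arrangement.

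For Foxa2 and Foxa1 the nearest gene was Hhex, a homeobox factor of early liver, at 0.15 and 0.26. Hhex had 127, 134 and 59.8 TPM in dHep, 69.9, 188 and 171 TPM in KO and 124, 54.0 and 50.3 TPM in WT. It too was low in dHep 3, KO 1, WT 2 and WT 3, the 4 lowest libraries of Foxa1, Foxa2 and Onecut1 as well in TPM. Foxa3 differed from them, with its 3 lowest libraries all in WT. Foxa3 was nearest to Vmo1 (0.26), Hes6 (0.31) and Irf5 (0.31). Among members, Hnf4a and Cebpa differed least (0.11), then Foxa1 and Foxa2 (0.16), and Onecut1 and Prox1 differed most (2.30). Hnf4a was nearest to Ehmt1, Ppfia1 and Fam69a (each 0.07) and Cebpa to 0610040J01Rik (0.03), Araf and Eif3m (each 0.06).

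**Figure D4:**
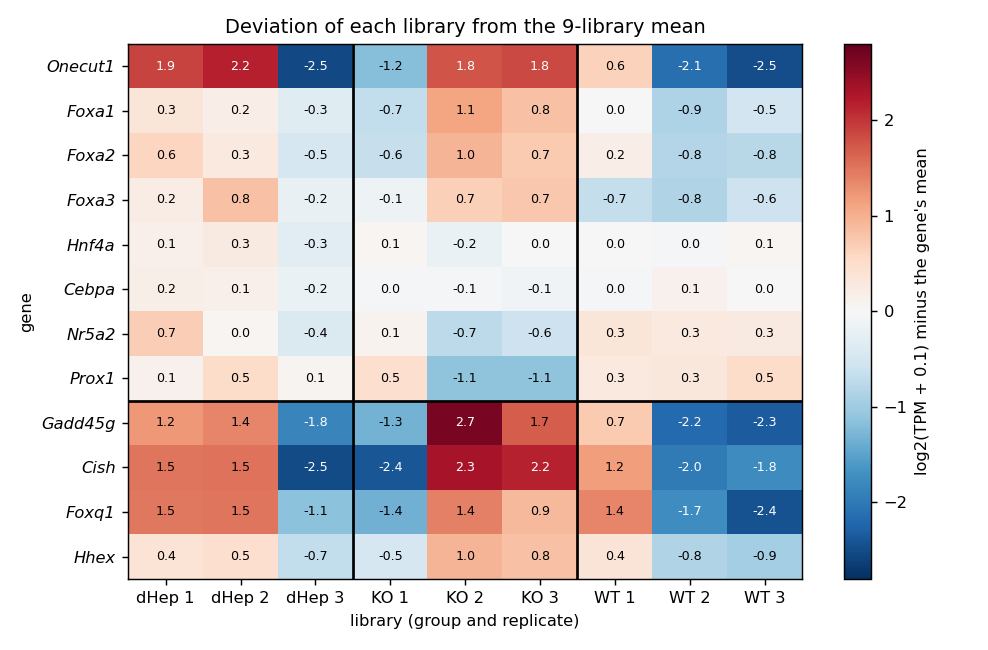
Deviation of log2(TPM + 0.1) from each gene's mean over the 9 libraries (colour and number) for the 8 members above the line and, below it, for 3 genes nearest to Onecut1 and for Hhex; columns are libraries in the order dHep, KO, WT. Onecut1, Cish, Gadd45g and Foxq1 are low in dHep 3, KO 1, WT 2 and WT 3, and Prox1 is low in KO 2 and KO 3.

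Nr5a2 and Prox1 did not pass in any of the 3 comparisons in the edgeR fit on all 9 libraries. Nr5a2, an activator of bile acid and cholesterol transport genes, had 85.3, 60.9 and 51.0 CPM in dHep, 64.7, 37.2 and 43.1 CPM in KO and 61.6, 59.6 and 56.8 CPM in WT. KO 2 and KO 3 were the lowest of the 9, and KO 1 lay above WT on this scale only. By library totals KO 1 had 61.8 CPM against 62.3 to 67.0 in WT. In TPM it had 29.2 against 32.6 to 34.8. Nr5a2 in KO against WT was -0.70 with limma on log2(TPM + 0.1) (adjusted p = 0.0571). It passed with limma voom, which weights libraries by quality (-0.42 ± 0.14, adjusted p = 0.0215). The log2 difference was 0.15 ± 0.22 in dHep (edgeR adjusted p = 0.659), -0.30 ± 0.22 in KO against WT (edgeR adjusted p = 0.306) and -0.45 ± 0.22 in KO against dHep (-0.95 to 0.06, edgeR adjusted p = 0.226). The genes nearest to Nr5a2 were Sesn1, Gpatch8 and Fyco1, at 0.11 to 0.12.

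Prox1, a homeobox protein known to bind HNF4A and LRH-1 and to repress their targets, had 55.2, 81.6 and 69.0 CPM in dHep, 81.3, 27.4 and 28.2 CPM in KO and 57.0, 59.0 and 65.9 CPM in WT. KO 2 and KO 3 were again the lowest, at less than 30 CPM, while KO 1 was level with dHep 2. The log2 difference was 0.18 ± 0.37 in dHep (edgeR adjusted p = 0.755), -0.41 ± 0.37 in KO against WT (edgeR adjusted p = 0.393) and -0.59 ± 0.37 in KO against dHep (edgeR adjusted p = 0.323). Without KO 1, Prox1 fell in KO, with a log2 fold change of -1.11 ± 0.16 against WT (edgeR adjusted p = 0.00219) and of -1.29 ± 0.16 against dHep (edgeR adjusted p = 0.00556). In this test KO 1 thus decided the call, and limma voom, which weights libraries by quality, also called Prox1 in KO against WT (-0.85 ± 0.24, adjusted p = 0.0105). Prox1 also marks lymphatic endothelium, whose 7 markers, Prox1 among them, summed to 149 to 208 CPM in dHep, 91.2 to 168 in KO and 189 to 195 in WT, with Ccl21a at 0 reads in all 9 libraries. Prox1 itself gave 81.3 of the 168 CPM in KO 1, 27.4 of 115 in KO 2 and 28.2 of 91.2 in KO 3. The sum is therefore not independent of Prox1. Reln gave a further large part, 2217 of 4961 reads in dHep 1, while Pdpn had 3 to 26 reads and Mmrn1 4 to 62. Resting mainly on Prox1 and Reln, the list cannot decide whether lymphatic endothelium changed. Of the 6 tested markers, 0 rose and 3 fell in KO against WT, where 20.9% of all genes rose and 22.1% fell. Of 9 sinusoidal endothelial markers 7 fell in KO (summing to 183 to 272 CPM, against 398 to 438 in WT); their part in the Prox1 values was not tested. Dusp6, a phosphatase that limits ERK signalling, was nearest to Prox1 (0.15), with 15.7 and 17.2 TPM in KO 2 and KO 3 and 37.4 to 55.8 elsewhere.

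Around the members, 34 other hepatocyte transcription factors were tested. In dHep against WT 9 rose and 0 fell (14 and 1 at an unadjusted p under 0.05; DESeq2 gave 11 and 1), and in KO against WT 12 rose and 5 fell. The 9 of 34 and 17 of 34 that passed stood beside 24.3% and 43.0% of all genes. Their median log2 fold changes were 0.35 and 0.20, beside 0.02 and -0.01 for all genes. Mlxipl, encoding the glucose sensor ChREBP, averaged 182 CPM in dHep against 89.8 in WT and rose by 1.02 ± 0.20. Nr2f6, an orphan receptor, averaged 35.1 CPM in KO, against 22.0 in dHep and 17.7 in WT, and passed against both.

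Of the 5 factors that fell in KO, Ppara and Foxo1 had the smallest p. Ppara, the fatty acid sensor, had 452, 260 and 270 CPM in KO against 636, 643 and 631 CPM in WT, and fell by 0.96 on the log2 scale (SE 0.20, edgeR adjusted p = 0.00478). KO 2 and KO 3 were again lower than KO 1. Foxo1, the insulin-restrained activator of glucose output genes, averaged 27.6 CPM in KO and 54.7 in WT, and fell by 0.99 (SE 0.21, edgeR adjusted p = 0.00512). Against dHep, Esrrg and Nfib were lower in KO, at 3.15 against 7.37 CPM and at 79.7 against 116 CPM.

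Of 20 coactivators and corepressors that work with HNF4A, 2 rose and 1 fell in dHep against WT, and 4 rose and 2 fell in KO against WT. At 3 of 20 and 6 of 20, the share that passed was below that of all genes, 24.3% and 43.0%. Med25, a Mediator subunit that HNF4A recruits, had 15.5, 15.7 and 15.2 CPM in dHep, 20.9, 20.6 and 19.9 CPM in KO and 10.5, 10.7 and 9.87 CPM in WT. The 3 groups did not overlap in any pair, with log2 fold changes of 0.58 ± 0.09 in dHep, 0.98 ± 0.09 in KO and 0.40 ± 0.09 between KO and dHep (edgeR adjusted p = 0.00315, 0.000205 and 0.0270). The corepressor gene Ncor1 fell by 0.51 in KO (SE 0.14). Ppargc1a, the fasting-induced coactivator PGC-1α, had 7.89, 5.56 and 5.60 CPM in KO, 15.6, 12.4 and 9.47 CPM in dHep and 14.7, 12.97 and 13.5 CPM in WT, and fell in KO against both. Smarca4, the chromatin remodeller BRG1, fell in dHep, at 47.9 CPM on average against 71.1 in WT.

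Among 43 tested genes known to need HNF4A in liver, 19 rose and 5 fell in dHep against WT and 18 rose and 5 fell in KO against WT. The share that passed, 24 of 43 and 23 of 43, stood beside 24.3% and 43.0% over all genes; without WT 2 or WT 3, 15 passed in dHep. Medians were 0.48 and 0.50, and 5 of the genes are also in the hepatocyte marker list. Of that list 5 of 12 rose in dHep and 4 of 12 in KO, beside 12.4% and 20.9% of all genes. Sums of markers of other liver cells also differed. The 10 stellate cell and fibroblast markers summed to 285 to 449 CPM in dHep, 236 to 318 in KO and 583 to 668 in WT. Of these 5 of 10 fell in dHep and 7 of 10 in KO, with none at 0 reads, beside 11.9% and 22.1% of all genes. Of the 9 sinusoidal endothelial markers 2 fell in dHep and 7 in KO, beside the same shares. The 10 cholangiocyte markers summed to 155 to 192 CPM in dHep, 216 to 249 in KO and 291 to 351 in WT. Spp1 and Tm4sf4 gave most of these sums, at 5134 and 3822 of 9467 reads in WT 2. Of 9 tested, 0 rose and 2 fell in dHep and 2 rose and 1 fell in KO. Their median log2 fold changes went the other way from the sums, at 0.26 in dHep and 0.66 in KO. In lists this short, 1 or 2 calls cannot be told from the shares of all genes. The part of these cells in the hepatocyte gene values was not tested. Apom, an apolipoprotein of HDL, had 201, 260 and 212 CPM in dHep, 203, 167 and 207 CPM in KO and 104, 106 and 101 CPM in WT. It rose by 1.12 ± 0.12 in dHep and 0.89 ± 0.12 in KO. F11, encoding clotting factor XI, averaged 125 CPM in dHep, 154 in KO and 52.7 in WT and rose by 1.24 ± 0.15 and 1.54 ± 0.15.

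The 5 genes of this list that fell in dHep were Apoa4, Cyp3a11, Apob, Apoc2 and Mttp. Apoa4, an apolipoprotein of lipoproteins secreted by gut and liver, had 313, 151 and 318 CPM in dHep, 530, 458 and 507 CPM in KO and 1894, 2847 and 3870 CPM in WT. It fell by 3.46 in dHep (SE 0.34, edgeR adjusted p = 0.000392) and by 2.53 in KO (SE 0.33, edgeR adjusted p = 0.000604). Cyp3a11, a xenobiotic-metabolizing cytochrome, averaged 567 CPM in dHep, 538 in KO and 2019 in WT. Apob, whose protein forms the scaffold of secreted VLDL, averaged 4518 CPM in dHep and 7976 in WT. Cyp7a1, whose enzyme sets the rate of bile acid production, had 54.4, 262 and 242 CPM in dHep, 35.9, 29.5 and 54.0 CPM in KO and 67.5, 47.9 and 75.6 CPM in WT, and was 2.22 lower in KO than in dHep on the log2 scale (SE 0.50, edgeR adjusted p = 0.0264).

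**Figure D5:**
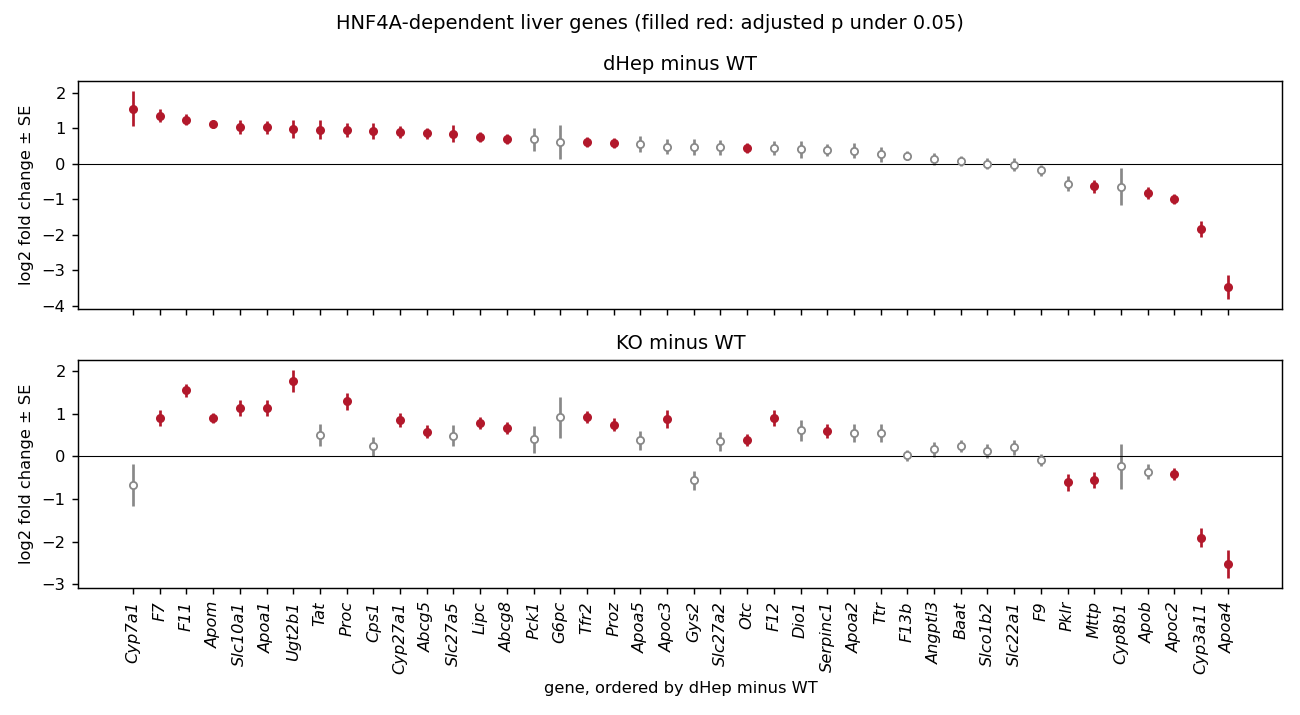
Log2 fold change ± SE of 42 of the 43 HNF4A-dependent liver genes in dHep minus WT (upper) and KO minus WT (lower), ordered by the upper panel; filled red points passed the adjusted threshold. Rises outnumber falls among the plotted genes in both, 18 to 5 and 17 to 5, and Apoa4 and Cyp3a11 fell most in each.

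Of 18 tested genes known to rise when HNF4A is lost from liver, 2 rose and 5 fell in dHep against WT, and 4 rose and 4 fell in KO against WT, so 7 of 18 and 8 of 18 passed, beside 24.3% and 43.0% of all genes. Ccnd1, the cyclin of cell cycle entry, had 25.3, 32.5 and 21.6 CPM in dHep, 12.96, 22.0 and 25.3 CPM in KO and 78.2, 91.5 and 125 CPM in WT. It fell by 1.89 in dHep (SE 0.27) and by 2.29 in KO (SE 0.27). The immediate early gene Egr1 went the other way in dHep, with 88.8, 104 and 78.1 CPM against 6.35, 8.08 and 9.34 CPM in WT (3.51 ± 0.72, edgeR adjusted p = 0.00876), and KO was split, at 91.6 CPM in KO 1 and 11.6 and 13.3 in KO 2 and KO 3. Jun rose in both groups, averaging 49.7 CPM in dHep, 55.3 in KO and 16.7 in WT.

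Genes with known sites for the other members were read in the same way. The lists are not independent, as 15 of the HNF4A-dependent genes are also in another list. Apob, with FOXA sites, and Cyp7a1, with NR5A2 sites, are among them. Of 13 tested genes with FOXA sites, 5 rose and 2 fell in dHep and 2 rose and 1 fell in KO against WT; 7 of 13 and 3 of 13 passed, beside 24.3% and 43.0% of all genes. Serpina1a, an α1-antitrypsin gene with close paralogs whose reads may be shared, averaged 1951 CPM in dHep, 2964 in KO and 862 in WT, and Slc2a2, the hepatocyte glucose transporter, averaged 372, 315 and 544. Of 15 genes with C/EBPα sites, 6 rose and 1 fell in dHep and 1 rose and 2 fell in KO, that is 7 of 15 and 3 of 15 beside the same shares. Pparg, the adipogenic receptor that is raised in fatty liver, had 12.5, 10.8 and 14.7 CPM in dHep, 10.99, 10.4 and 10.7 CPM in KO and 37.5, 35.3 and 39.5 CPM in WT, and fell in both (by 1.56 and 1.80). Of 11 genes with NR5A2 sites, 5 rose and 0 fell in dHep and 4 rose and 0 fell in KO. These 5 of 11 and 4 of 11 stood beside 24.3% and 43.0% of all genes. The counts of 0 were the same at an unadjusted p under 0.05 and by DESeq2. The bile acid importer Slc10a1 averaged 671 CPM in dHep, 717 in KO and 330 in WT, and Abcg5, a sterol exporter subunit, had 118, 146 and 173 CPM in dHep against 88.1, 78.8 and 74.0 CPM in WT.

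Among the paralogs, Cebpe was the one that passed in KO, against WT and against dHep. It had 180, 65 and 184 reads in dHep, 0, 0 and 0 in KO and 209, 135 and 185 in WT. Against a floor of 3 reads over the 3 KO libraries, KO was at least 131-fold lower than WT and at least 110-fold lower than dHep. C/EBPε is known to act in myeloid cells, and Cebpe is itself in the myeloid and neutrophil marker list. The other markers of that list summed to 96.1 to 170 CPM in dHep, 47.7 to 91.6 in KO and 226 to 262 in WT. Of 8 tested, 7 fell in KO against WT, where 22.1% of all genes fell. The part of myeloid cells in the Cebpe values was not tested. Hnf4g, the HNF4A paralog of the gut, had 143 reads in KO 1 and 2 to 16 in the other 8 libraries, and Onecut3 had 0 in all.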

How the data were processed

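Stranded poly(A) RNA-seq of 9 livers was analysed, 3 per group as the labels give them. Per the submitters' processing notes, HISAT2 2.1.0 was used for alignment, with the build mm10. The deposited counts are raw whole reads per gene, made with featureCounts 1.6.2 at strand setting 2 per the file headers, beside a Length column (another unit, bases) from which TPM was computed here. The authors' own DESeq2 results were not used.

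One joint quasi-likelihood model of the 9 libraries was fitted with edgeR 4.0.16 under R 4.3.3 (limma 3.58.1 and DESeq2 1.42.0 served the alternatives) with TMM factors, after a low-count filter (filterByExpr, minimum count 10, minimum total 15). The SE is the size of the log2 fold change divided by the square root of F. No 2 libraries held identical counts, and the labels give no batch. P-values measure the spread between these mice. CPM are TMM-scaled per 1e+06 reads. A floor of 3 reads covers counting error only. The fit was tested on simulated data with 50 genes changed per size. Of 1.2-fold changes, 0% passed in dHep against WT and 0% in KO against WT. For 2-fold changes these shares were 64% and 50%, and for 4-fold changes 80% and 94%. Hnf4a differed from WT by 1.24- and 1.25-fold. Fewer genes were changed there than passed in the data, so these shares do not carry over directly. Sequences were read with Python and figures drawn with matplotlib.

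The members, gene lists and tests were chosen with earlier results of these data known. Named genes are the 8 members, up to 2 called genes per list, direction and comparison with the smallest p, the 3 genes most like each member, the defining markers and F2rl1; only a subset of these is printed, and some are not reported here. Apob, Apoc2 and Mttp as a trio, Hnf4g and Onecut3 were named after their values were seen, as were KO 1 values of Egr1. Of 135 different genes in the 7 lists 18 are in more than 1. The alternatives were other normalizations (median-of-ratios, library totals), DESeq2, limma voom, limma on log2(TPM + 0.1), other filters, fits of 2 groups, a replicate block and left-out libraries.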

Additional observations from a re-analysis of the deposited data

How the results depend on the processing

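Over 20 alternatives (17 planned, 3 chosen after seeing the data: library totals, limma on log2(TPM + 0.1), and leaving out WT 1, dHep 2 and KO 1 together) the 24 member log2 fold changes gave 480 values. Of these 394 kept direction and side of the threshold, 39 lost the call, 23 gained it and 24 changed sign; the cause was not tested. Hnf4a in dHep against WT passed with DESeq2 alone (0.32, adjusted p = 0.0335), ranging from 0.20 to 0.39 when 1 library was left out. In KO against WT it passed with DESeq2 (0.33), limma voom (0.34), the 2 groups alone (0.32) and without dHep 2 or dHep 3, with a leave-one-out range of 0.28 to 0.40, and was -0.0492 in TPM. In KO against dHep it was -0.0173 with library totals, -0.060 in TPM and -0.0686 to 0.12 when 1 library was left out. Cebpa in KO against WT was -0.10 in TPM. In KO against dHep Cebpa was 0.0128 without WT 1 and dHep 2 and 0.0161 without WT 1, dHep 2 and KO 1, with a leave-one-out range of -0.0594 to 0.0125. Nr5a2 in dHep against WT was -0.18 in TPM and -0.0843 to 0.30 when 1 library was left out. Prox1 in dHep against WT was -0.00928 without WT 1 and dHep 2, -0.000653 with library totals and -0.13 in TPM. Onecut1 in KO against dHep was 0.34 with limma voom, 0.29 in TPM, 0.56 without WT 1 and dHep 2, 1.06 without WT 1, dHep 2 and KO 1, and -0.57 to 0.56 when 1 library was left out.

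The members called in dHep against WT (2) became 1 with limma voom, no filter, library totals, TPM or without WT 1 and dHep 2, 0 to 2 when 1 library was left out, 0 without WT 2, and 3 without WT 1, dHep 2 and KO 1, when Foxa1 (1.06, adjusted p = 0.00897), Foxa2 (1.27, adjusted p = 0.0124) and Foxa3 passed. Those in KO against WT (4) became 8 with limma voom (6 rose, 2 fell), 2 with library totals, 1 in TPM and 1 to 5 when 1 library was left out, 1 without KO 2, KO 3, WT 2 or WT 3. Those in KO against dHep (0) became 2 without KO 1 and 3 without WT 1, dHep 2 and KO 1.

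Library totals and TPM moved the split of all called genes: in dHep against WT 1624 rose and 1568 fell with TMM, 775 and 2030 with library totals and 573 and 3275 in TPM, and in KO against WT 2751 and 2902, 1523 and 3766, and 1039 and 5292. HNF4A-dependent genes still gave 13 and 8, and 13 and 9, in TPM. All genes called in KO against dHep (1264) were 2068 with DESeq2 and 802 with limma voom.

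Replicate numbers did not pair the mice: deviations of same-numbered libraries correlated between -0.18 and 0.04. With the replicate number as a block, 1 member passed in dHep against WT and 2 in KO against WT, where Foxa2 (adjusted p = 0.0606) and Cebpa (0.0635) did not, and Onecut1 in KO against dHep was 0.63.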
